A study of Mus musculus with 3 samples.

Results

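MERVL is a mouse endogenous retrovirus of the ERVL group, and MT2 names its long terminal repeats (LTRs), the flanking segments that hold the promoter. Described here is every repeat name that starts with MERVL or MT2, which gave 8 names of 18484 listed and of 1475 with a read in any library. These are 2 internal names, MERVL-int and MERVL_2A-int, and 6 LTR names, MT2_Mm, MT2A, MT2B, MT2B1, MT2B2 and MT2C_Mm. Membership rests on the spelling of the name alone. All 8 passed the filter on low values in both comparisons below.

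The counts come from RNA immunoprecipitation sequencing, in which RNA that comes down with an antibody is sequenced, of hippocampus from mice aged 9 months. All animals were of C57BL/6 background. PS19 mice carry a transgene for mutant human tau, driven by the mouse prion protein promoter, and WT mice lack it. There was 1 library for each of 3 groups: a pull-down of ZBP1, a sensor protein for left-handed (Z-form) nucleic acid, from PS19; a pull-down of Z-form nucleic acid (ZNA) from PS19; and a ZNA pull-down from WT. The labels do not say if a library was made from one animal or from a pool. With 1 library per group there is no replicate spread, no p-value is given, and every interval below is a 95% interval for counting error only. No input library is analysed here, so the amount of an RNA in the tissue and its recovery by the antibody cannot be told apart, nor can fewer cells of a type and less RNA per cell.

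MERVL belongs to the class III retroviruses of the mouse and lacks an envelope gene. An intact copy has 2 LTRs around an internal stretch with the gag and pol genes, while recombination leaves many solitary LTRs. MT2_Mm is the LTR of the youngest MERVL copies and is known as a promoter in early cleavage embryos, where it also starts chimeric transcripts that run into neighbouring genes. The other MT2 names are related, mostly older LTRs. In adult somatic tissue, this family is known to be largely silenced through chromatin.

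The libraries held 1425383 (ZBP1, PS19), 2918985 (ZNA, PS19) and 3234786 (ZNA, WT) reads on repeat names. The 2 ribosomal RNA names LSU-rRNA_Hsa and SSU-rRNA_Hsa took between 89.4% and 95.5% of them. This left 74474, 308613 and 145372 reads outside rRNA, in the same order. Between the ZNA libraries, the share of reads outside rRNA was 2.35-fold larger for PS19 than for WT (2.34 to 2.37), and within PS19 it was 2.02-fold smaller for ZBP1 than for ZNA (2.01 to 2.04). Each level is therefore given on 2 scales: as CPM, counts per 1000000 reads on all names, and as nrCPM, counts per 1000000 reads outside rRNA. BC1_Mm, a neuronal RNA and the only tissue marker among repeat names, had 33, 146 and 77 reads; no protein-coding marker is among the names, so the tissue label could not be checked further.

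Reads on the 8 names numbered 1210 in PS19 ZBP1, 4178 in PS19 ZNA and 1796 in WT ZNA. They made up 1.62% (Wilson interval 1.54 to 1.72%), 1.35% (1.31 to 1.40%) and 1.24% (1.18 to 1.29%) of the reads outside rRNA. Among reads outside rRNA the family thus took the largest share in the ZBP1 library. The other families described below also had a larger share there than in PS19 ZNA. On all names the order was another, with 0.0849%, 0.143% and 0.0555%, so that the PS19 ZNA library was highest.

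The internal names stand first. MERVL-int, which covers the gag and pol stretch of the youngest copies, had 110 reads in PS19 ZBP1, 469 in PS19 ZNA and 194 in WT ZNA. These counts are 77.2, 161 and 60.0 CPM, and 1477, 1520 and 1335 nrCPM. On the first scale PS19 ZNA was well above the other two; on the second the 3 libraries lay close together, with overlapping Poisson intervals (1214 to 1780, 1385 to 1664 and 1153 to 1536).

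MERVL_2A-int, the internal stretch of a related subfamily, had 348, 1203 and 506 reads in the same order. Its levels were 244, 412 and 156 CPM and 4673, 3898 and 3481 nrCPM. On the second scale the ZBP1 library (4195 to 5190) stood above both ZNA libraries (3681 to 4125 and 3184 to 3798) without overlap of the intervals. Together the internal names held 458, 1672 and 700 reads.

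The LTR names held 752, 2506 and 1096 reads in all. MT2_Mm had 36, 137 and 66 reads, or 25.3, 46.9 and 20.4 CPM and 483, 444 and 454 nrCPM. It was the member with the fewest reads in every library, and its intervals outside rRNA overlapped throughout (339 to 669, 373 to 525 and 351 to 578).

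MT2A had 289, 752 and 354 reads, or 203, 258 and 109 CPM. Outside rRNA its levels were 3881 (3446 to 4355), 2437 (2266 to 2617) and 2435 (2188 to 2702) nrCPM. The ZNA libraries were nearly equal on that scale, and the ZBP1 library again stood above both without overlap.

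MT2C_Mm had the ZBP1 library above both as well. It had 105, 274 and 109 reads, or 73.7, 93.9 and 33.7 CPM. Outside rRNA it had 1410 (1153 to 1707), 888 (786 to 999) and 750 (616 to 904) nrCPM.

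The MT2B names gave no such gap. MT2B had 67, 328 and 140 reads, or 47.0, 112 and 43.3 CPM and 900, 1063 and 963 nrCPM. MT2B1 had 199, 734 and 321 reads, or 139.6, 251 and 99.2 CPM and 2672, 2378 and 2208 nrCPM. MT2B2 had 56, 281 and 106 reads, or 39.3, 96.3 and 32.8 CPM and 752, 911 and 729 nrCPM. For each of these 3 names, the intervals of the 3 libraries overlapped outside rRNA. The share of all names whose ZBP1 interval lies above both ZNA intervals was not computed. In nrCPM, ZBP1 was above PS19 ZNA for 5 of the 8 members and for 323 of the 682 names compared.

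**Figure D1:**
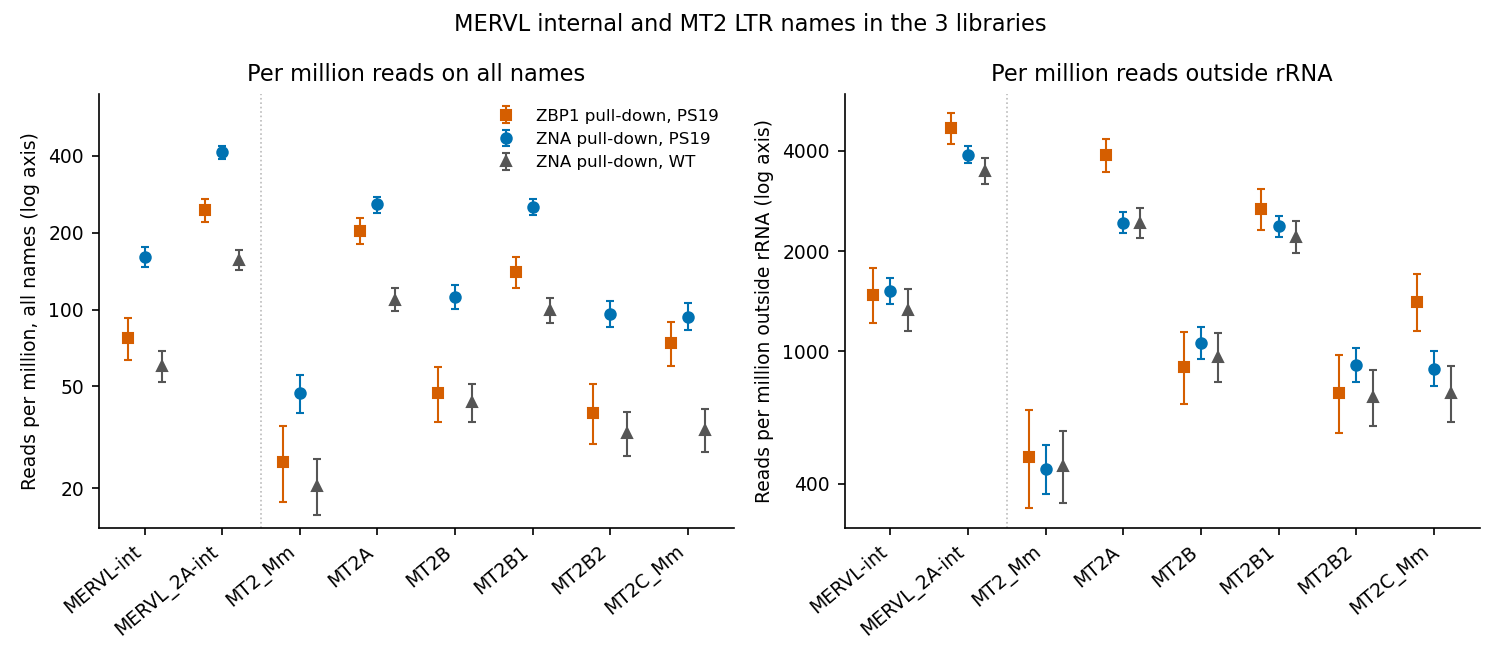
Level of each of the 8 names in the 3 libraries, on log axes, in CPM over all names (left) and in nrCPM, outside rRNA (right); points are single libraries, bars are 95% Poisson intervals for counting error, and levels are not divided by length. On the left PS19 ZNA is highest for all 8 names. Over all names compared, it is above WT ZNA for 695 of 713 and above ZBP1 for 620 of 682. On the right ZBP1 lies above both ZNA libraries without overlap of the bars for MERVL_2A-int, MT2A and MT2C_Mm, at 4673, 3881 and 1410 nrCPM. The share of all names with such a gap was not computed.

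In CPM, the order of the libraries was the same for all 8 names: PS19 ZNA, then PS19 ZBP1, then WT ZNA. Most repeat names also had PS19 ZNA on top: it was above WT ZNA for 695 of the 713 names compared. It was above PS19 ZBP1 for 620 of 682. The share of all names with the full order was not computed. The lower neighbours in that order, PS19 ZBP1 and WT ZNA, differ in both antibody and genotype. Their ratio had an interval that includes 1 for MT2_Mm, MT2B and MT2B2. It was above 1 beyond counting error for the other 5, from 1.29-fold for MERVL-int (1.01 to 1.63) to 2.19-fold for MT2C_Mm (1.66 to 2.88). The share of reads outside rRNA was itself 1.16-fold larger for PS19 ZBP1 (1.15 to 1.17), a value inside the MERVL-int interval. In nrCPM the ratio of a name was above 1 beyond counting error for 4 names. MERVL_2A-int stood at 1.34 (1.17 to 1.54) and MT2A at 1.59 (1.36 to 1.87). MT2B1 stood at 1.21 (1.01 to 1.45) and MT2C_Mm at 1.88 (1.42 to 2.48), and MERVL-int no longer passed, at 1.11 (0.868 to 1.41). For this pair of libraries, the share of all names above 1 beyond counting error was not computed. Outside rRNA the order was not shared: 4 names ran PS19 ZBP1, PS19 ZNA, WT ZNA (MERVL_2A-int, MT2A, MT2B1 and MT2C_Mm), and the other 4 followed 3 different orders. The share of all names with each of these orders was not computed.

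The first comparison asked how the family in the ZNA pull-down differed by genotype. In CPM, all 8 names were higher in PS19, between 2.30-fold for MT2_Mm (1.70 to 3.13) and 2.94-fold for MT2B2 (2.34 to 3.71). MERVL-int was 2.68-fold higher (2.26 to 3.18), MERVL_2A-int 2.63-fold (2.37 to 2.93) and the pooled family 2.58-fold (2.44 to 2.73). All 8 were past 2-fold on the scale of log2 level with a pseudocount of 1, which understates low names, where 74.3% of the 713 names compared were also past it. None was 2-fold lower, as were 0.421% of all names. The median log2 ratio was 1.37 over the members and 1.24 over all names compared; that of all reads outside rRNA together was 1.23. On this scale the members' median lay between the quartiles of all names compared, 0.986 and 1.45.

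In nrCPM, none of the 8 names was past 2-fold in either direction, against 4.63% of all names higher and 3.23% lower. The ratios ran from 0.978 for MT2_Mm (0.724 to 1.33) to 1.25 for MT2B2 (0.995 to 1.58). MERVL-int stood at 1.14 (0.961 to 1.35) and MT2A at 1.001 (0.881 to 1.14). MERVL_2A-int alone had an interval above 1, at 1.12 (1.01 to 1.24). It was the member with the most reads, and MERVL-int, MT2B2 and MT2C_Mm (1.18, 0.945 to 1.49) had larger ratios with wider intervals. The share of all names with an interval above 1 was not computed. The median log2 ratio was 0.15 over the members and 0.08 over all names. Above 0 were 7 of the 8 members, MT2A barely so, and 424 of the 713 names compared. The pooled family was 1.10-fold higher in PS19 (1.04 to 1.16), a difference beyond counting error and small beside the 2.35-fold shift of the scale itself.

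No difference between members was detectable in this comparison. The interval of each of the 8 ratios included the pooled ratio of the family. Set against the other 7 names, each member's relative change had an interval that includes 1, with values from 0.889 for MT2_Mm (0.659 to 1.20) to 1.15 for MT2B2 (0.913 to 1.45).

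The other comparison was between antibodies, ZBP1 over ZNA, within PS19. Both comparisons use the PS19 ZNA library, so their ratios are not independent. In CPM, all 8 names were lower in the ZBP1 library, from 1.27-fold lower for MT2A (1.11 to 1.46) and for MT2C_Mm (1.01 to 1.61) to 2.45-fold lower for MT2B2 (1.83 to 3.33). MERVL-int was 2.08-fold lower (1.69 to 2.59), MERVL_2A-int 1.69-fold (1.497 to 1.91), MT2_Mm 1.86-fold (1.28 to 2.76) and the pooled family 1.69-fold (1.58 to 1.80). Of the 8, 3 (MERVL-int, MT2B and MT2B2) were past 2-fold lower, a share below the 50.1% of the 682 names compared, and 0 were past 2-fold higher, against 0.293% of them. The median log2 ratio was -0.86 over the members and -1.002 over all names.

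Outside rRNA the direction of 5 names and of the pooled family turned. The pooled family was 1.20-fold higher in the ZBP1 library (1.12 to 1.28). Families described below were higher too, at 1.27-fold for ORR1 (1.24 to 1.31) and 1.28-fold for MTA to MTE (1.25 to 1.32). The other ERVL names stood at 1.29 (1.19 to 1.39) and IAP at 1.31 (1.20 to 1.43). MT2A was 1.59-fold higher (1.39 to 1.83), MT2C_Mm 1.59-fold (1.26 to 1.996) and MERVL_2A-int 1.20-fold (1.06 to 1.35). The intervals of the other 5 names included 1, with ratios of 0.972 for MERVL-int (0.782 to 1.20), 1.09 for MT2_Mm (0.732 to 1.58), 1.12 for MT2B1 (0.956 to 1.32), 0.846 for MT2B (0.641 to 1.10) and 0.826 for MT2B2 (0.608 to 1.10). The share of all names with an interval that leaves out 1 was not computed. No member was past 2-fold, against 9.24% of all names higher and 9.38% lower. The median log2 ratio was 0.15 over the members and -0.05 over all names.

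**Figure D2:**
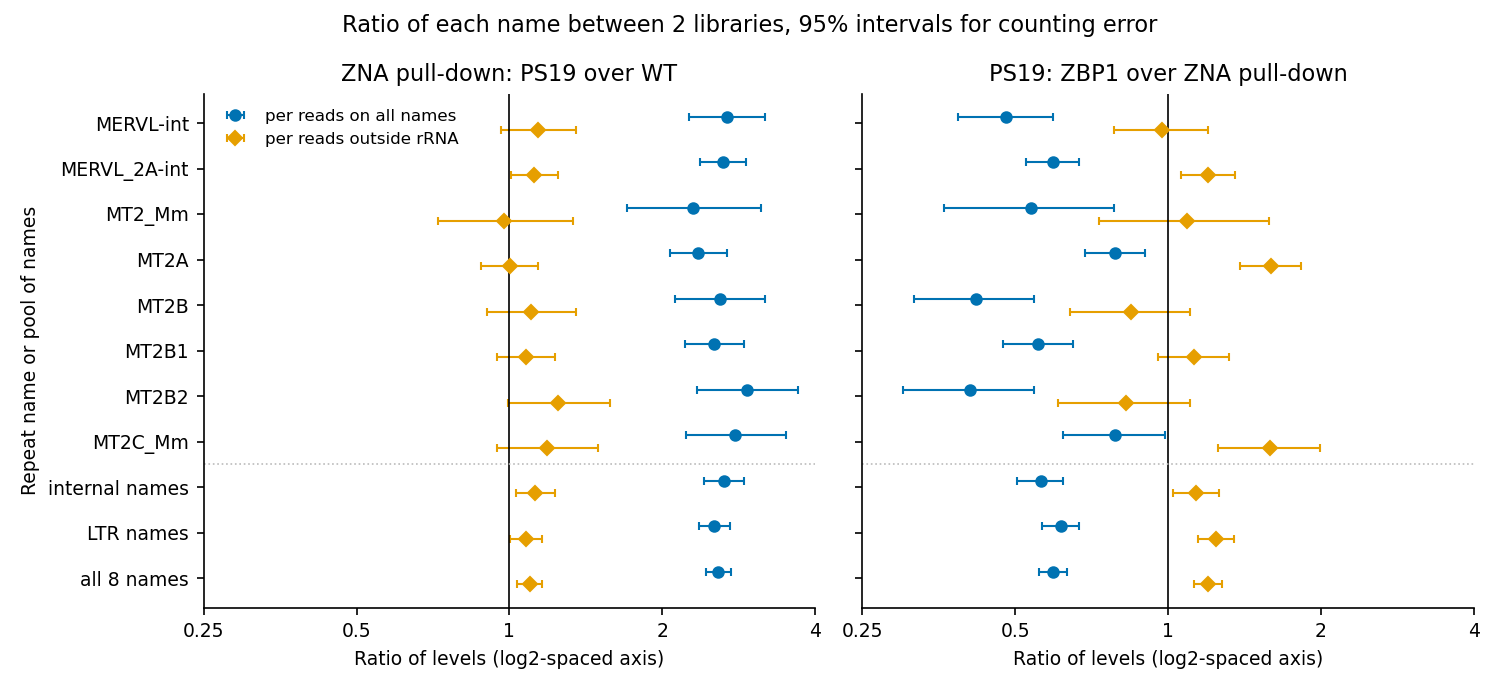
Ratio of each name, of the pooled internal names, of the pooled LTR names and of the pooled family between 2 libraries, on a log2-spaced axis, for PS19 over WT in the ZNA pull-down (left) and ZBP1 over ZNA in PS19 (right); bars are exact 95% intervals for counting error and the line marks 1. On the left the names stay together on either scale; on the right they spread, with MT2A and MT2C_Mm at 1.59 and MT2B2 at 0.826 per reads outside rRNA.

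Here the members did separate. Their log2 ratios in CPM ran from -1.27 to -0.34, and the quartiles of all names compared were -1.49 and -0.48. In families described below they ran from -1.40 to -0.02 (ORR1), -2.04 to -0.44 (MTA to MTE) and -1.50 to -0.05 (IAP). A spread of this size was therefore not particular to the MERVL and MT2 names. Relative to the other 7 names, a measure that no scaling of the libraries changes, MT2A was 1.43-fold higher in the ZBP1 library (1.23 to 1.67) and MT2C_Mm 1.35-fold higher (1.07 to 1.71). MT2B was 1.45-fold lower relative to the rest (1.11 to 1.91), MT2B2 1.49-fold lower (1.11 to 1.99) and MERVL-int 1.26-fold lower (1.02 to 1.57). For every name but MT2A, the other 7 names include MT2A, which rose most, so these departures are not separate results. Values with MT2A left out of the pool were not computed. The intervals of MERVL_2A-int, MT2_Mm and MT2B1 included 1. As a share of the family's reads, MT2A made up 23.9% in the PS19 ZBP1 library (21.6 to 26.4%), 18.0% in PS19 ZNA (16.9 to 19.2%) and 19.7% in WT ZNA (17.9 to 21.6%). MT2C_Mm made up 8.68% (7.22 to 10.4%), 6.56% (5.85 to 7.35%) and 6.07% (5.06 to 7.27%). MT2 names resemble each other in sequence, so the authors' assignment of reads to one or another of them could move these shares.

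Internal and LTR names were then compared within each library. Over all 8 names there were 0.609 internal reads per LTR read in the PS19 ZBP1 library (0.541 to 0.685), 0.667 in PS19 ZNA (0.627 to 0.710) and 0.639 in WT ZNA (0.580 to 0.703). Reads are not divided by length or copy number, so only the change of this ratio between libraries is read. It was 1.04 times as large in PS19 as in WT for the ZNA pull-down (0.933 to 1.17) and 0.913 times as large for ZBP1 as for ZNA in PS19 (0.800 to 1.04). Neither change exceeded counting error, and the intervals leave room for a difference of up to about 1.17-fold and 1.25-fold, respectively.

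The youngest pair gave the same picture with wider intervals. MERVL-int had 3.06 reads per MT2_Mm read in the PS19 ZBP1 library (2.08 to 4.58), 3.42 in PS19 ZNA (2.82 to 4.17) and 2.94 in WT ZNA (2.21 to 3.95). The change was 1.16 for PS19 over WT (0.831 to 1.63) and 0.893 for ZBP1 over ZNA (0.585 to 1.36). MERVL_2A-int and MT2A, a pair chosen after the counts were seen for the 2A in both names, gave 1.20 (1.03 to 1.41), 1.60 (1.46 to 1.75) and 1.43 (1.25 to 1.64) internal reads per LTR read. Its ratio was 1.33-fold lower for ZBP1 than for ZNA in PS19 (1.11 to 1.59). Relative to the other 7 names, MERVL_2A-int stood at 0.998 in that comparison (0.867 to 1.15). The change of this pair thus restates the rise of MT2A given above and is no separate result.

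**Figure D3:**
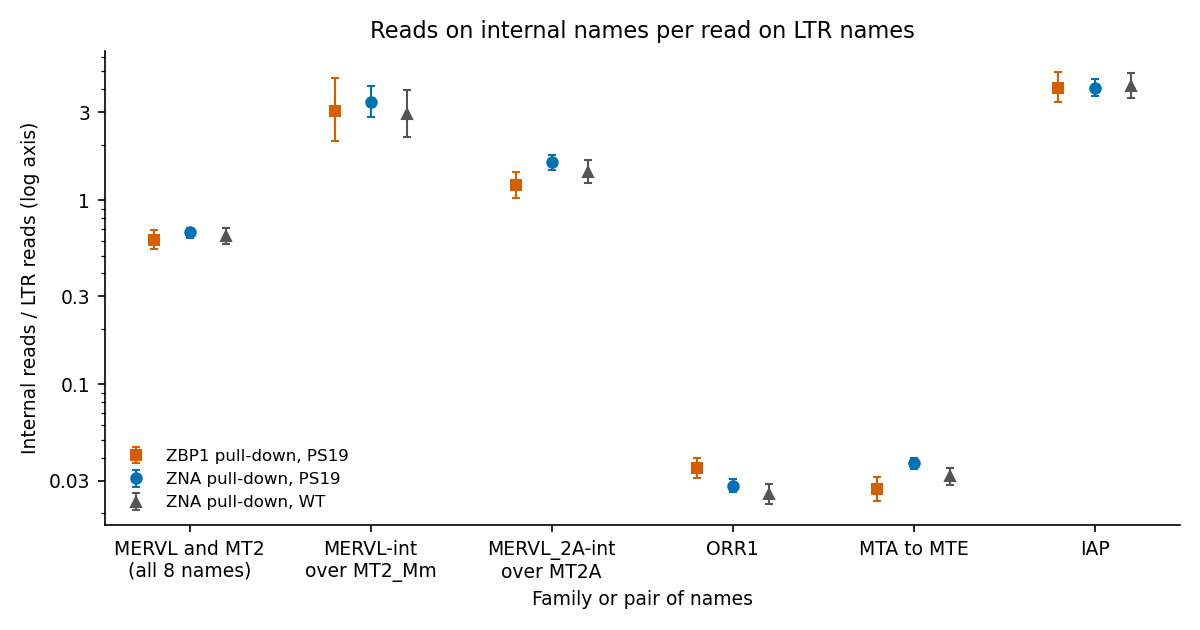
Reads on internal names divided by reads on LTR names in each library, on a log axis, for the 8 MERVL and MT2 names, 2 pairs among them, and the ORR1, MTA to MTE and IAP names; bars are exact 95% intervals for counting error. For the 8 names the 3 libraries lie between 0.609 and 0.667 with overlapping intervals, while the heights of different families also reflect length and copy number.

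The same ratio was computed for 3 other families: ORR1 and MTA to MTE, which are MaLR elements distantly related to MERVL, and IAP, a class II retrovirus. For PS19 over WT in the ZNA pull-down, the change of the MERVL and MT2 ratio divided by that of the other family was 0.946 for ORR1 (0.786 to 1.14), 0.887 for MTA to MTE (0.748 to 1.05) and 1.07 for IAP (0.865 to 1.33), so no difference was detectable at this depth. For ZBP1 over ZNA in PS19 it was 0.730 for ORR1 (0.599 to 0.891), 1.26 for MTA to MTE (1.02 to 1.54) and 0.910 for IAP (0.710 to 1.17). The change of the MERVL and MT2 ratio between these libraries, though not the ratio itself, therefore lay between the changes of the MaLR families. In the ZBP1 library, internal reads per LTR read were 1.25-fold higher for ORR1 (1.08 to 1.45) and 1.38-fold lower for MTA to MTE (1.17 to 1.61). The ORR1 rise was not shared by all its internal names. ORR1B1-int, with 717 reads over the 3 libraries, had a log2 ratio of -0.02 in CPM. ORR1A3-int, with 245 reads, had -0.997, below the ORR1 median of -0.77.

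The pooled family was also set against its relatives. Its PS19 over WT ratio, divided by that of the other family, was 1.02 for ORR1 (0.957 to 1.08), 1.08 for IAP (0.984 to 1.18), 1.08 for the 33 other ERVL names (0.988 to 1.17) and 1.09 for MTA to MTE (1.03 to 1.16). For ZBP1 over ZNA the same measure was 0.943 for ORR1 (0.880 to 1.01), 0.916 for IAP (0.824 to 1.02), 0.933 for the other ERVL names (0.845 to 1.03) and 0.934 for MTA to MTE (0.872 to 1.001). MTA to MTE in the first comparison was the only one of these 8 values whose interval left out 1.

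The other ERVL names (those starting ERVL, MLT2, LTR16, LTR33 or RMER15, remnants of older elements of the same group) differ in depth. RMER15 had 1814 reads over the 3 libraries and RMER15-int 733, so they weigh heavily in the pooled values. No other of these names had more than the 259 reads of ERVL-int. Of the 33, 23 could be compared between PS19 and WT, and 14 of them were past 2-fold higher and 0 lower in CPM, with a median log2 ratio of 1.21. The lowest was LTR16E2, with 11 reads in either library (ratio 1.11, 0.436 to 2.82), and the highest LTR16, with 43 and 13 reads (3.67, 1.93 to 7.43). Between ZBP1 and ZNA, 22 could be compared, of which 5 were past 2-fold lower and 0 higher, with a median of -0.56. The lowest was LTR33A, with 8 and 53 reads, 3.24-fold lower (1.53 to 7.88), and the highest LTR16C, with 40 and 56 reads (1.46, 0.9498 to 2.23). Outside rRNA the medians were 0.03 and 0.42, and 0 names were past 2-fold higher and 1 lower in the first comparison, 4 higher and 0 lower in the second.

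Names with the most similar pair of log2 ratios were sought for MERVL-int and MT2_Mm among the 410 other names with at least 100 reads over the 3 libraries, as the distance between the points given by both ratios. For MERVL-int, at 1.41 and -1.05, the 5 closest were IAPEY3-int, RodERV21-int, RLTR18B, Tigger1 and L1MB4, at distances from 0.037 to 0.055. For MT2_Mm, at 1.16 and -0.87, they were MTA_Mm, RMER20A, MLTR25C, LTRIS_Mus and IAPLTR2_Mm, at distances from 0.030 to 0.071. None of these 10 is a MERVL or MT2 name, and they include a DNA transposon (Tigger1) and a LINE-1 name (L1MB4). With 3 libraries and counting intervals wider than these distances, the order among close names carries little information.

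**Figure D4:**
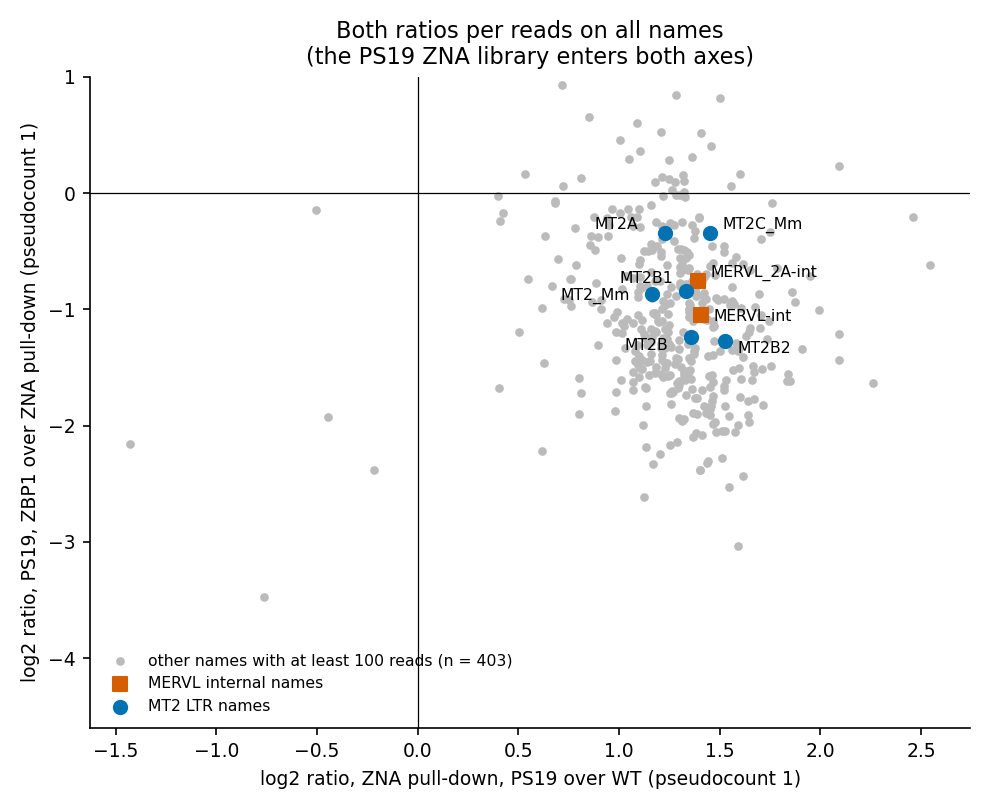
Log2 ratio of PS19 over WT in the ZNA pull-down (x) against log2 ratio of ZBP1 over ZNA in PS19 (y), both in CPM with a pseudocount of 1, for names with at least 100 reads over the 3 libraries; squares are the MERVL internal names, large circles the MT2 names and grey points the other 403 names. The 8 names lie between 1.16 and 1.53 on the x axis and between -1.27 and -0.34 on the y axis, inside the cloud of other names; the PS19 ZNA library enters both axes.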

How the data were processed

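The deposited values are read counts per repeat name, whole numbers with no scaling, per the file headers and from the values. The submitters' processing notes name Trim Galore 0.6.5, STAR 2.5.3a, featureCounts 2.0.4 and build mm39. The repeat annotation, the strand setting and the handling of reads that map to several copies are not given in the sources used here; a name pools all its copies, so no position can be given. Groups come from the sample titles.

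Levels are CPM over all names, or nrCPM, the same outside LSU-rRNA_Hsa and SSU-rRNA_Hsa. Names averaging 1 CPM or more and summing to 20 reads or more over both libraries were compared. With 1 library per group, edgeR's test could not be fitted. Ratios carry exact 95% intervals (conditional, Clopper-Pearson); those of ratios of ratios are Woolf intervals, those of levels Poisson and those of shares Wilson intervals. Reads without molecular identifiers are not independent molecules. A count of 0 allows up to 3 reads, at most 2.10 CPM. The named repeats are all members, the 5 names closest to MERVL-int and to MT2_Mm, and the extremes of the other ERVL names. A few deep names of the lists are named in addition. The members and lists were chosen with earlier results of these data known. Alternatives were TMM scaling, scaling outside rRNA, pseudocounts of 0.1 and 5, other filters and fold limits, and other internal to LTR pairs. Python 3.11.15, scipy 1.17.1, pandas 2.3.3 and edgeR 4.0.16 (TMM factors only) were used.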

Additional observations from a re-analysis of the deposited data

How the results depend on the processing

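The scaling decided the size of the members' ratios and, between pull-downs, the direction of some, because the share of rRNA sets the library total. For PS19 over WT the members' median log2 ratio went from 1.37 to 0.15 per reads outside rRNA and 0.16 under TMM, and the number past 2-fold higher from 8 to 0 under both. For ZBP1 over ZNA the median went from -0.86 to 0.15 and -0.010, and the number past 2-fold lower from 3 to 0 under both. At a limit of 4-fold the numbers were 0 and 0, and at 1.5-fold the second was 6.

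MT2_Mm turned to -0.032 (outside rRNA) and -0.023 (TMM) for PS19 over WT. For ZBP1 over ZNA, MERVL_2A-int turned to 0.26 and 0.10, MT2A to 0.67 and 0.51, MT2B1 to 0.17 and 0.012 and MT2C_Mm to 0.67 and 0.50 in that order, and MT2_Mm to 0.12 outside rRNA. Under both other pseudocounts, the log2 ratios of all members stayed within their counting interval; a filter on names cannot change a member's own ratio. Under the 2 scalings 21 of them moved beyond it with the same sign and 11 changed sign. A changed sign is not always a reversal beyond counting error. Outside rRNA the ratio of MT2_Mm was 0.978 for PS19 over WT (0.724 to 1.33). For ZBP1 over ZNA it was 1.09 (0.732 to 1.58), and that of MT2B1 was 1.12 (0.956 to 1.32). Intervals under TMM were not computed.

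Internal reads per LTR read were 3.06, 3.42 and 2.94 for MERVL-int over MT2_Mm in the ZBP1, ZNA (PS19) and ZNA (WT) libraries, and 1.20, 1.60 and 1.43 for MERVL_2A-int over MT2A, a pair added after the data were seen. The change of the latter for ZBP1 over ZNA was 0.753, which restates the rise of MT2A relative to the other names. No paired analysis was possible because each group has 1 library, and for the same reason no library could be left out. The depth limits MT2_Mm most, with 36 reads in the ZBP1 library.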
